A study of Mus musculus with 15 samples.

Results

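The genes described here are 9 integrin chains and the kindlin Fermt1 that epithelial cells are known to use to grip their surroundings: Itga2, Itga3, Itga5, Itga6, Itgav, Itgb1, Itgb4, Itgb6, Itgb8 and Fermt1. They were taken by gene name, 10 of the 54456 genes in the deposited count table, and all 10 were among the 18140 genes with enough counts to be tested. The samples were organoids of wild-type (WT) mouse mammary gland epithelium, small clumps of epithelial cells grown in DMEM/F12 medium with L-Ala-Gln, ITS and antibiotics. In a migration assay they were cultured with beads soaked beforehand in the growth factor FGF10 or in bovine serum albumin (BSA), the protein control. RNA was collected at 0 h, at 36 h and 72 h with BSA beads, and at 36 h and 72 h with FGF10 beads, in 3 libraries a group and 15 in all. The labels give no age or stage of the mice and do not say whether the libraries of a group came from separate cultures, so p-values measure the spread between these libraries, which may be technical.

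Integrins are receptors made of 1 alpha and 1 beta chain that join the matrix outside a cell to its skeleton inside. Itga3 and Itga6 chains bind laminins of the basement membrane, Itga2 pairs with Itgb1 to bind collagen, and Itga5 and Itgav chains bind fibronectin and other proteins with an RGD motif. Itgb1 pairs with all of these alpha chains, Itgb4 pairs with Itga6 in hemidesmosomes, and Itgb6 and Itgb8 pair with Itgav and release active TGF-beta from its latent form. Kindlins bind the tails of beta chains inside the cell and, with talin, switch integrins to the active state, and Fermt1 encodes the kindlin of epithelia.

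The 3 genes with the largest difference between FGF10 and BSA beads at 36 h were picked by that difference, and shared control of them was not tested. Their promoters are shown. Each is the 250 bases before a RefSeq start of the gene in build GRCm38.p6, 5′ to 3′ on the gene's strand. Capitals mark matches to GGGCGG, the core of Sp/KLF sites, or to CCGGAA, the core of ETS sites, on either strand.
Fermt1: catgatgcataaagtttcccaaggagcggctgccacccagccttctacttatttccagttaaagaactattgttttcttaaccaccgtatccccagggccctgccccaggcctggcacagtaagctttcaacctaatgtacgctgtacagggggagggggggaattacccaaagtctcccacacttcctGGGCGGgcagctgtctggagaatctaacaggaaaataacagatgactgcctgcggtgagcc
Itga3: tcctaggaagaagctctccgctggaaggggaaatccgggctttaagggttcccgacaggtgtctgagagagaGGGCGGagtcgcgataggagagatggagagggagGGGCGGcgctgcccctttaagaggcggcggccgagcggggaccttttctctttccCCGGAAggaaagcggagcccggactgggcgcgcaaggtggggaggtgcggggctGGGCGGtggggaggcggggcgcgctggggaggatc
Itga2: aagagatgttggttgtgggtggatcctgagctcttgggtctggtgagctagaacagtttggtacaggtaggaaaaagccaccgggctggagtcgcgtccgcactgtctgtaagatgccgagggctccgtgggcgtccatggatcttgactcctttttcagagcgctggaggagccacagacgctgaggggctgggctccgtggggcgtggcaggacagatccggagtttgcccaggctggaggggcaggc
They lie at chr2:132946037-132946286 (Fermt1), chr11:95076715-95076964 (Itga3) and chr13:114932101-114932350 (Itga2), all on the minus strand. A stretch just after the RefSeq start was found in GENCODE transcripts of Itga3 and Itga2, but not in those of Fermt1. Where GENCODE starts its Fermt1 transcripts was not looked up. The Itga3 promoter shown holds 3 copies of the Sp/KLF letters and 1 of the ETS letters, which stands 89 bases before the start. The Fermt1 promoter holds 1 copy of the Sp/KLF letters, 61 bases before the start, and the Itga2 promoter holds neither. Of 32851 mouse promoters of this length, 32.7% hold the Sp/KLF letters and 12% the ETS letters. The AP-1 letters TGANTCA (6.75% of promoters) and the TEAD letters GGAATG (12.6%) were in none of the 3. The promoter shown for Itga3 has 67.6% G and C and 22 CpG pairs. That of Itga2 has 60.8% and 12, and that of Fermt1 52.4% and 5, where the median promoter has 52.4% and 6. Itga3 has another RefSeq promoter, at chr11:95069199-95069448, with 50.8% G and C and 5 CpG pairs. It holds the Sp/KLF letters 246 bases before its start and lacks the ETS letters. Of the 10 genes, 8 have a promoter in the table used here.

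In GRCm39, the build of the counts, Itga3 lies at chr11:94935300-94967627 and Itgb4 at chr11:115865535-115899238, on opposite strands of the same chromosome. Itga6 (chr2:71575960-71688760), Itgav (chr2:83554741-83637260), Itgb6 (chr2:60428636-60552987) and Fermt1 (chr2:132746309-132787826) share chromosome 2. Itga2 lies at chr13:114969617-115068636, Itga5 at chr15:103252713-103275190, Itgb1 at chr8:129412135-129459681 and Itgb8 at chr12:119121757-119202537. All are protein-coding, and counts were summed over their exons.

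Total counts ran from 11965322 to 24261233 per library. All 10 markers of mammary epithelium were detected in every library, with a summed level of 18628 to 44993 CPM (counts scaled to the size of the library, with TMM factors between libraries). Immune markers summed to 252 to 759 CPM, endothelial markers to 12.9 to 366, fibroblast markers to 12.9 to 636 and adipocyte markers to 68.6 to 695. Replicate 4 of FGF10 at 36 h stood apart from the other libraries, with 1.11% of its counts on mitochondrial genes against 2.02% to 4.55% in the rest. Replicates 2_1 and 2_2 of BSA at 72 h were closer to each other (mean chi-square per gene 4.15) than either was to replicate 3 (11.1 and 9.06), and the labels do not say whether they share a culture. Differences below are on the log2 scale with the standard error of edgeR's quasi-likelihood fit, and a gene counts as called, or as having risen or fallen, where its p adjusted by Benjamini and Hochberg over all 18140 genes was under 0.05. The comparisons share libraries with each other, so their results are not independent.

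Per kilobase of exon, which allows levels of different genes to be set side by side, Itgb1 was the highest of the 10 genes in every group, with means from 54.6 CPM per kb with BSA at 72 h to 86.9 with FGF10 at 36 h, where its lowest library overlapped those of Fermt1. Averaged over the 5 groups' libraries, Itgb1 stood at percentile 94.1 of the tested genes, Fermt1 at 87.6, Itga3 at 77.9, Itga6 at 77.2 and Itgb4 at 73.1. Itgb6 and Itgb8, the beta chains that act on latent TGF-beta, were lowest, at percentiles 36.8 and 36.5. At 0 h the order below Itgb1 was Itga3 (15.5 CPM per kb), Fermt1 (14.8) and Itga6 (13.1), whose libraries overlapped from each gene to the next. Itgb4 followed at 5.03, then Itgav at 4.31 and Itga5 at 3.27, again with overlap between neighbours, then Itga2 at 1.62, and Itgb6 (1.31) and Itgb8 (1.25), which overlapped. Fermt1 was in the second place in all groups after 0 h, with 21 CPM per kb at 36 h and 21.4 at 72 h with BSA, and 51.6 and 26.7 with FGF10. Itga3 stood below Itga6 and Itgb4 with BSA at 36 h, at 8.1 CPM per kb against 9.3 and 8.37, with overlap between neighbours. With FGF10 at 36 h Itga3 stood above both, at 19.7 against 13 and 12.6, and its libraries did not overlap those of Itga6.

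**Figure D1:**
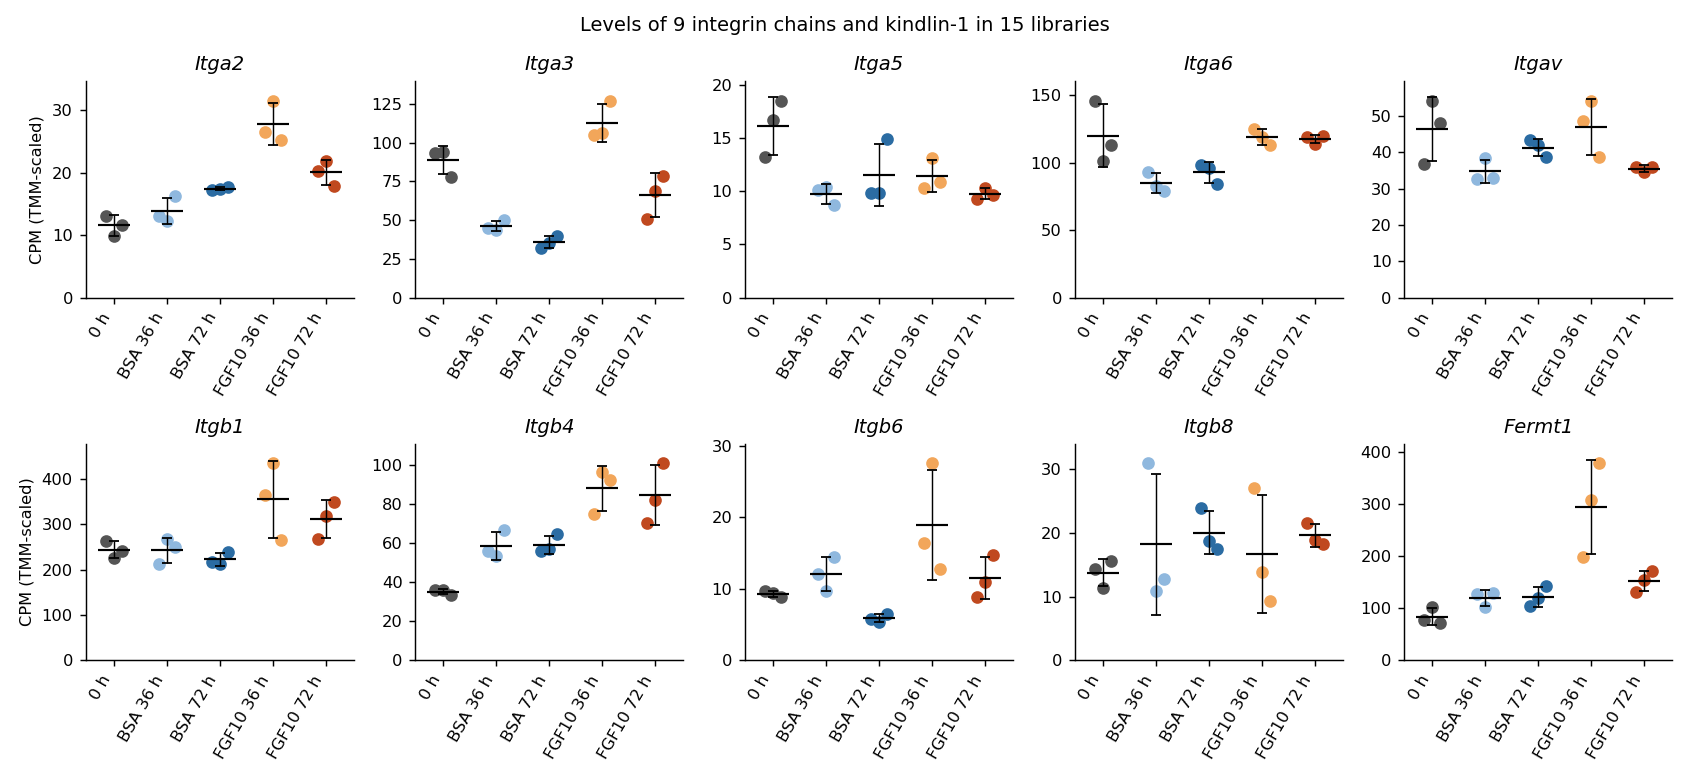
Level of each gene in each of the 15 libraries, in TMM-scaled CPM on a linear axis from 0, with 1 panel a gene. Points are libraries, long bars the mean and error bars the SD of the 3 libraries of a group. Itga2, Itga3 and Fermt1 were highest with FGF10 at 36 h, and Itgb8 was spread widely in both groups at 36 h.

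FGF10 beads were compared with BSA beads at the same time, which asks what the growth factor did beyond the culture itself. At 36 h, 4 of the 10 genes rose and 0 fell, where 0.954% of all tested genes rose and 1.39% fell. The 4 were the laminin-binding chain Itga3, the hemidesmosome chain Itgb4, the collagen-binding chain Itga2 and the kindlin Fermt1. For 6 genes every FGF10 library was above every BSA library (9.88% of all genes), and for none was it below (9.53%). Without adjustment, 8 of the 10 had a p under 0.05, as did 18.7% of all genes. The median difference of the 10 genes was 0.57, against 0.00 over all genes.

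Among the laminin-binding chains, Itga3 differed most. Its level was 93.5, 93.9 and 78.1 CPM at 0 h, 45.1, 43.6 and 50.1 with BSA at 36 h, and 105, 106 and 127 with FGF10 at 36 h. The FGF10 libraries were above all others and the BSA libraries below those of 0 h. The difference between FGF10 and BSA was 1.28 ± 0.16 (2.43-fold, adjusted p = 0.00141). Itga3 was called under all 23 alternative analyses, which changed the scaling, filter, tool or design, or left out 1 library.

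Itga6, the other laminin-binding alpha chain, had 93.2, 82.8 and 79.2 CPM with BSA at 36 h and 125, 119 and 113 with FGF10. Its groups did not overlap, but the difference of 0.49 ± 0.13 did not pass the test (adjusted p = 0.0718). It passed when replicate 1 of 0 h was left out, under limma voom and under DESeq2 (adjusted p from 0.0101 to 0.236 over the 23 alternatives). Its partner Itgb4 had 56.1, 53.3 and 66.8 CPM with BSA and 75.3, 96.7 and 92.6 with FGF10. Here too every FGF10 library was above every BSA library. The difference of 0.59 ± 0.15 was just past the threshold (adjusted p = 0.0474), and the call held in 8 of 23 alternatives, with adjusted p from 0.00774 to 0.193. Leaving out a single library ended it for replicates 2 and 4 of 0 h, any BSA library of either time, replicates 3 and 4 of FGF10 at 36 h and replicate 3 of FGF10 at 72 h.

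Itga2, the collagen-binding chain, had 13.1, 12.3 and 16.2 CPM with BSA at 36 h and 26.5, 31.5 and 25.2 with FGF10. The lowest FGF10 library lay well above the highest of BSA. Itga2 rose by 1.00 ± 0.15 with FGF10 (adjusted p = 0.00423). Fermt1 had 127, 103 and 130 CPM with BSA and 198, 307 and 378 with FGF10, the widest spread between FGF10 libraries of the 4 genes that rose. Its difference was 1.30 ± 0.22 (2.46-fold, adjusted p = 0.00716). Both genes were called in 22 of 23 alternatives. The exception was a fit of these 6 libraries alone, with adjusted p of 0.0712 for Itga2 and 0.0847 for Fermt1.

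Itgb1, the shared beta chain, had 213, 267 and 249 CPM with BSA at 36 h and 364, 434 and 266 with FGF10. Replicate 4 of FGF10, the library that stood apart, fell within the BSA range while the other two were above it. The difference was 0.55 ± 0.17 (adjusted p = 0.102 by edgeR). Without that replicate it was 0.71 (adjusted p = 0.0169), and without replicate 3 of FGF10 it was 0.37 (adjusted p = 0.214). Itgav, which pairs with Itgb1, Itgb6 and Itgb8 among others, had 32.7, 38.5 and 33 CPM with BSA and 48.5, 54 and 38.8 with FGF10. Its groups just failed to overlap, and its difference of 0.44 ± 0.15 did not pass (adjusted p = 0.125). Without replicate 4 of FGF10 at 36 h it was 0.56 (adjusted p = 0.0462 by edgeR), and without replicate 3 it was 0.33 (adjusted p = 0.245). The exons of Itgav overlap the gene Gm13684, and the counting used no strand, so fragments of the shared stretch could not be told apart.

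The remaining 3 genes did not pass at 36 h. Itga5, the fibronectin receptor chain, had 8.68 to 10.4 CPM with BSA and 10.3 to 13.1 with FGF10 (0.24 ± 0.19, adjusted p = 0.513). Itgb6 had 12.1, 9.64 and 14.4 CPM with BSA and 16.4, 27.5 and 12.8 with FGF10, with overlap (0.65 ± 0.25, adjusted p = 0.175). Itgb8 had 30.9, 10.9 and 12.8 CPM with BSA and 27, 13.8 and 9.3 with FGF10. In both groups replicate 1 was far above the other libraries. The difference of Itgb8 was -0.12 ± 0.39 with a 95% interval from -0.97 to 0.72, wide enough to hold a change in either direction. It was 0.50 without replicate 1 of BSA and -0.66 without replicate 1 of FGF10.

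**Figure D2:**
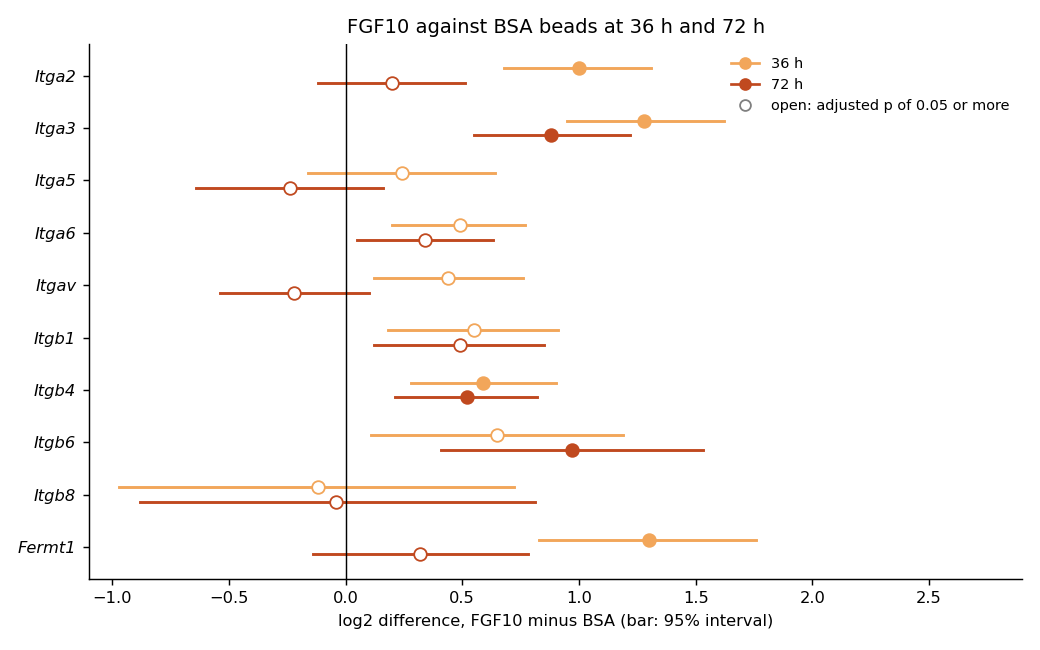
Difference between FGF10 and BSA beads (x axis, log2, FGF10 minus BSA) for each gene at 36 h and at 72 h, with 95% intervals from the edgeR fit. Filled points are called at an adjusted p under 0.05: Itga2, Itga3, Itgb4 and Fermt1 at 36 h, and Itga3, Itgb4 and Itgb6 at 72 h.

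At 72 h, 3 of the 10 genes rose with FGF10 against BSA and 0 fell, where 3.01% of all tested genes rose and 2.98% fell. They were Itga3 and Itgb4, as at 36 h, and the epithelial beta chain Itgb6. Every FGF10 library was above every BSA library for 6 genes (21.9% of all genes) and below for 1, Itgav (21.7%). The median difference of the 10 genes was 0.33, against -0.01 over all genes, and 5 of them had an unadjusted p under 0.05, as did 23.5% of all genes.

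Itga3 had 32.1, 35.4 and 40.1 CPM with BSA at 72 h and 50.6, 68.9 and 78.7 with FGF10. All FGF10 libraries were above those of BSA and, with the exception of replicate 4, below those of 0 h. The difference with BSA was 0.88 ± 0.16 (1.84-fold, adjusted p = 0.00699), and without replicate 4 of FGF10 at 72 h its adjusted p was 0.0533. Itgb4 had 56, 57.2 and 64.7 CPM with BSA and 70.6, 82.3 and 101 with FGF10. Its difference of 0.52 ± 0.15 was again at the edge (adjusted p = 0.0493) and was called in 9 of 23 alternatives (adjusted p from 0.00463 to 0.262). The call ended without replicate 2 or 4 of 0 h, any BSA library of either time, or replicate 3 or 4 of FGF10 at 72 h. Itga6 had 98.4, 96.5 and 84.1 CPM with BSA and 119, 114 and 120 with FGF10 (0.34 ± 0.13, adjusted p = 0.143).

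Itgb6 was the low one of the BSA arm at 72 h, with 5.75, 5.36 and 6.47 CPM against 8.79, 11 and 14.7 with FGF10. The BSA libraries lay below every other library of the series. The difference was 0.97 ± 0.26 (1.96-fold, adjusted p = 0.0413) and was called in 16 of 23 alternatives, with adjusted p from 0.00149 to 0.224. Leaving out any 1 BSA library of 72 h, or replicate 3 or 4 of FGF10 at 72 h, ended the call. Summing replicates 2_1 and 2_2 into 1 library ended it too (adjusted p = 0.127). Itgb8 had 23.9, 18.8 and 17.5 CPM with BSA and 21.6, 18.9 and 18.3 with FGF10, and its difference of -0.04 ± 0.39 had a 95% interval from -0.88 to 0.81.

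Fermt1 and Itga2, which had risen at 36 h, were not called at 72 h. Fermt1 had 104, 119 and 143 CPM with BSA and 132, 155 and 171 with FGF10, with overlap (0.32 ± 0.22, adjusted p = 0.393). Itga2 had 17.2, 17.4 and 17.7 CPM with BSA and 20.3, 21.9 and 17.9 with FGF10, just without overlap (0.20 ± 0.15, adjusted p = 0.454). Itgb1 had 217, 212 and 239 CPM with BSA and 267, 319 and 350 with FGF10. All 3 of its FGF10 libraries were higher, but its difference of 0.49 ± 0.17 did not pass (adjusted p = 0.101; 0.00237 to 0.359 over the alternatives, of which 4 called it, among them leaving out replicate 4 of FGF10 at 36 h). Itgav (-0.22 ± 0.15, adjusted p = 0.399) and Itga5 (-0.24 ± 0.19, adjusted p = 0.477) had values below 0.

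The change of the FGF10 effect between 36 h and 72 h was tested as an interaction. With edgeR, 0 of the 10 genes and 0% of all tested genes passed, while 3 of the 10 and 5.5% of all genes (998) had an unadjusted p under 0.05. With limma voom 0 of the 10 and 0 of all genes passed, and with DESeq2 0 of the 10 and 18 of all. The 3 genes were Itga2 (-0.80 ± 0.21, adjusted p = 0.753), Fermt1 (-0.98 ± 0.30, adjusted p = 0.782) and Itgav (-0.66 ± 0.21, adjusted p = 0.782). A smaller effect at 72 h than at 36 h was thus not shown for any of the 10 genes.

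Markers of other cell types moved with the comparison of FGF10 and BSA at both times. At 72 h, of 10 tested immune markers 6 fell with FGF10, of 7 adipocyte markers 3 and of 10 endothelial markers 2, where 2.98% of all genes fell. The endothelial sum was 96.2 to 231 CPM with BSA and 13.7 to 33.2 with FGF10, and the adipocyte sum 433 to 466 against 87.8 to 138. The immune sum was 570 to 759 with BSA against 334 to 535 with FGF10, where Cd3e was at 0 in all libraries. The fibroblast sum was 40.6 to 91.9 against 12.9 to 34.6. The mammary epithelial sum was higher with FGF10, at 32778 to 38422 against 18628 to 20530, and 3 of its 10 markers rose. The median difference of these markers at 72 h was 0.34, about that of the 10 integrin and kindlin genes (0.33). Basal markers summed to 20410 to 22633 against 9114 to 11043, with 3 of 8 higher and 2 lower and a median difference of 0.10. At 36 h the epithelial sum was 26760 to 33281 with FGF10 and 19365 to 27628 with BSA. The median difference of its markers was 0.26, against 0.57 for the 10 integrin and kindlin genes. Basal markers summed to 11926 to 14828 CPM with FGF10 at 36 h against 8496 to 9360 with BSA, without overlap. Their median difference was 0.45, although 1 of 8 was called and it was lower. Adipocyte markers summed to 68.6 to 101 CPM against 132 to 158, again without overlap, with 1 of 7 lower and Lep at 0 in all FGF10 libraries. The endothelial sum was 12.9 to 32.5 with FGF10 at 36 h against 22.8 to 77 with BSA, the fibroblast sum 13.9 to 28.7 against 24.7 to 44.7 and the immune sum 270 to 511 against 252 to 641, all with overlap. In bulk RNA, fewer cells of a type and less RNA per cell cannot be told apart, and the part of these markers in the differences of the 10 genes was not tested.

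Each arm was also compared with 0 h, which shows the course in culture. With BSA at 36 h, 1 of the 10 genes rose (12.7% of all genes) and 3 fell (14.4%). Itgb4 rose by 0.73 ± 0.15 (adjusted p = 0.00187), from 36.2, 36 and 33.8 CPM at 0 h. Itga3 fell by 0.94 ± 0.16 (adjusted p = 0.000546), Itga5 fell by 0.73 ± 0.19 (adjusted p = 0.00905) and Itga6 fell by 0.50 ± 0.13 (adjusted p = 0.013). The 0 h libraries of Itga5 had 13.2, 16.7 and 18.5 CPM and those of Itga6 146, 101 and 113, in each case above all BSA libraries of 36 h. The call of Itga6 ended without replicate 1 of 0 h or replicate 3 of BSA at 36 h (adjusted p up to 0.0654). After culture with BSA, then, Itga6 was lower and its partner Itgb4 higher, while Itga3 was lower and its partner Itgb1 was not called (-0.01 ± 0.17, adjusted p = 0.985).

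With FGF10 at 36 h, 5 of the 10 genes were higher than at 0 h (19.3% of all genes) and 1 was lower (20.5%). Fermt1 rose most, by 1.80 ± 0.22 (3.49-fold, adjusted p = 2.8e-05), from 78.2, 103 and 71.7 CPM. Itgb4 rose by 1.32 ± 0.15 (adjusted p = 1.4e-05) and Itga2 by 1.26 ± 0.15 (adjusted p = 2.3e-05), the latter from 13.1, 9.87 and 11.7 CPM. These 3 genes were called in all 23 alternatives. Itgb6 rose by 1.03 ± 0.26 (adjusted p = 0.00563), from a tight 9.67, 9.39 and 8.8 CPM, and Itgb1 by 0.54 ± 0.17 (adjusted p = 0.0209). Itga5 fell by 0.49 ± 0.19 (adjusted p = 0.0468). The call of Itgb1 ended without replicate 2 or 4 of 0 h or replicate 3 of FGF10 at 36 h (adjusted p up to 0.115), and that of Itga5 held in 10 of 23 alternatives (up to 0.173). The single libraries whose absence ended the call of Itga5 were replicates 2 and 4 of 0 h, 2 and 3 of BSA at 36 h, 2_2 of BSA at 72 h, 1 and 4 of FGF10 at 36 h, and all 3 of FGF10 at 72 h. For Itga3 the difference from 0 h was 0.35 ± 0.16 (adjusted p = 0.0882) and for Itga6 it was -0.01 ± 0.13, so that these chains, lower than at 0 h with BSA, were not called with FGF10.

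At 72 h with BSA, 2 genes were higher than at 0 h (12.2%) and 1 lower (13%). Itga3 fell by 1.30 ± 0.16 (adjusted p = 3.6e-05), while Itgb4 rose by 0.75 ± 0.15 (adjusted p = 0.00169) and Itga2 by 0.59 ± 0.15 (adjusted p = 0.00978). Itgb6 was below 0 h in every library, but its difference of -0.66 ± 0.26 did not pass (adjusted p = 0.0777). At 72 h with FGF10, 3 genes were higher than at 0 h (13.8%) and 1 lower (16%). Itgb4 rose by 1.26 ± 0.15 (adjusted p = 1.9e-05), Fermt1 by 0.85 ± 0.22 (adjusted p = 0.00798) and Itga2 by 0.79 ± 0.15 (adjusted p = 0.00119), and Itga5 fell by 0.72 ± 0.19 (adjusted p = 0.00901). Itgb4 was thus called higher than at 0 h in all 4 comparisons. Itgb8 was called in none of the 4, with differences from 0.27 to 0.54 and a standard error of 0.39. Its libraries of 72 h had 17.5 to 23.9 CPM with BSA and 18.3 to 21.6 with FGF10, all above the 11.4 to 15.6 of 0 h. With the compared groups alone, edgeR called it at 72 h (adjusted p = 0.0399 with BSA and 0.0378 with FGF10). With the replicate block it was called for FGF10 (adjusted p = 0.0486 by edgeR).

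Markers of other cell types fell in the same comparisons with 0 h. Of all tested genes, 14.4% fell and 12.7% rose with BSA at 36 h, and 20.5% and 19.3% with FGF10. At 72 h 13% fell and 12.2% rose with BSA, and 16% and 13.8% with FGF10. With BSA at 36 h, 6 of 8 fibroblast markers, 7 of 10 immune, 4 of 10 endothelial and 1 of 7 adipocyte markers were lower than at 0 h. With FGF10 at 36 h the counts were 8 of 8, 7 of 10, 10 of 10 and 3 of 7. At 72 h they were 3, 3, 1 and 1 with BSA, where 2 immune and 3 adipocyte markers were higher, and 7, 7, 7 and 3 with FGF10. Fibroblast markers summed to 96.3 to 636 CPM at 0 h and endothelial markers to 65 to 366, both with a wide spread between libraries. Immune markers summed to 490 to 641 CPM at 0 h and adipocyte markers to 255 to 695. Of the 10 epithelial markers 6 fell and 2 rose with BSA at 36 h, 7 and 2 with BSA at 72 h, and 5 and 2 with FGF10 at each time. Of the 8 basal markers 4 fell and 3 rose with BSA at 36 h, 3 and 2 with BSA at 72 h, 4 and 4 with FGF10 at 36 h, and 4 and 3 with FGF10 at 72 h. The part of these markers in the changes of the 10 genes from 0 h was not tested.

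From 36 h to 72 h within the FGF10 arm, 2 of the 10 genes fell (0.491% of all genes) and 0 rose (1.42%). They were Itga3, which fell by 0.77 ± 0.16 (adjusted p = 0.0198), and Fermt1, which fell by 0.95 ± 0.22 (adjusted p = 0.036). Both were lower in every library of 72 h than in any of 36 h, as were 5 of the 10 genes in all (9.9% of all genes). Neither call held when replicate 4 of FGF10 at 36 h, or replicate 2 or 3 of FGF10 at 72 h, was left out (adjusted p up to 0.125 for Itga3 and 0.179 for Fermt1 over all alternatives). That of Fermt1 also ended without replicate 3 of FGF10 at 36 h, replicate 4 of FGF10 at 72 h, replicate 3 of BSA at 36 h, or replicate 2_1 or 2_2 of BSA at 72 h. Within the BSA arm edgeR called 0 of the 10 genes (0.469% of all genes), with 3 at an unadjusted p under 0.05 (16% of all genes). Limma voom called 2 of the 10 (14.3% of all genes) and DESeq2 1 (3.24%). Itgb6 had the largest difference there, -1.04 ± 0.26 (adjusted p = 0.0796), with every library of 72 h below those of 36 h.

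**Figure D3:**
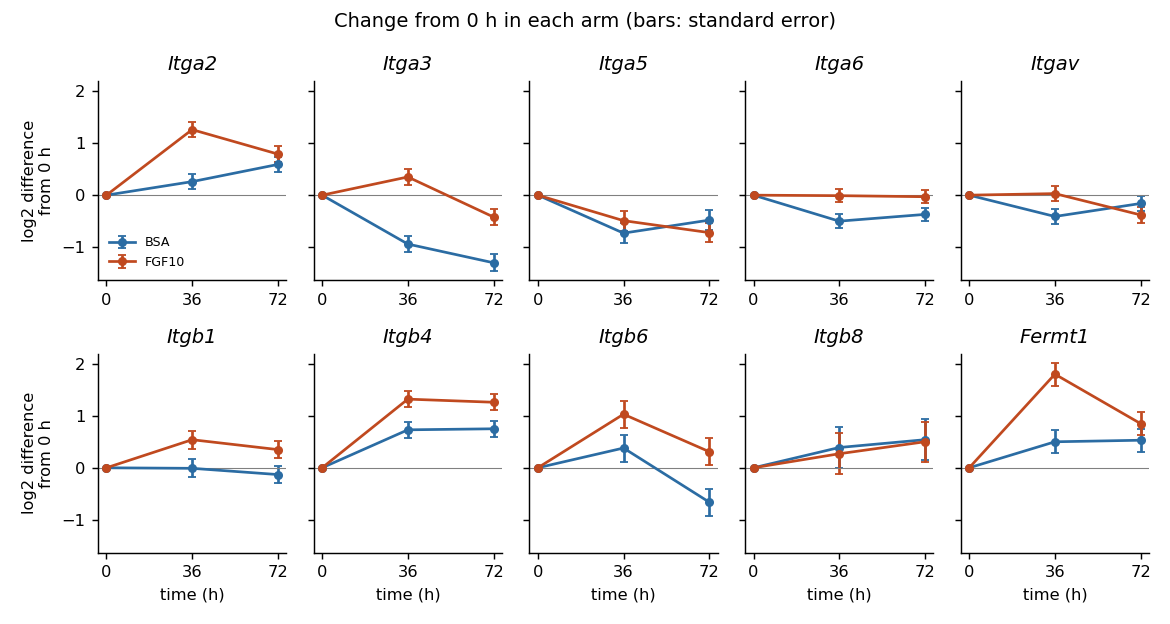
Difference from 0 h (y axis, log2) at 36 h and 72 h (x axis, hours) for each gene in the BSA and FGF10 arms, with standard errors from the edgeR fit. Both arms start from the same 3 libraries of 0 h, drawn at 0. Itga3 ran down with BSA, Itgb4 stood above 0 h in both arms, and Fermt1 peaked at 36 h with FGF10.

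The make-up of the alpha chains was described by each chain's share of the summed CPM per kilobase of Itga2, Itga3, Itga5, Itga6 and Itgav, and was not tested. Itga3 made up 41% at 0 h, 33% and 25% with BSA at 36 h and 72 h, and 45.4% and 35.3% with FGF10. The share of Itga6 ran the other way, with 34.5% at 0 h, 37.9% and 40.6% with BSA, and 30.1% and 39.7% with FGF10. Shares are parts of a whole, so a larger share of Itga3 leaves less for the rest. The levels of Itga3 and Itga6 did not run in opposite ways across the 15 libraries (Pearson's r of log2 CPM 0.68, and -0.20 within groups). The collagen-binding Itga2 had 4.28% at 0 h and 7.94% to 9.74% in the other groups. Itga5 had 8.73% at 0 h, 8.01% and 9.31% with BSA, and 5.36% and 6.1% with FGF10. Itgav had 11.5% at 0 h, 13.2% and 15.4% with BSA, and 10.1% and 10.2% with FGF10.

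**Figure D4:**
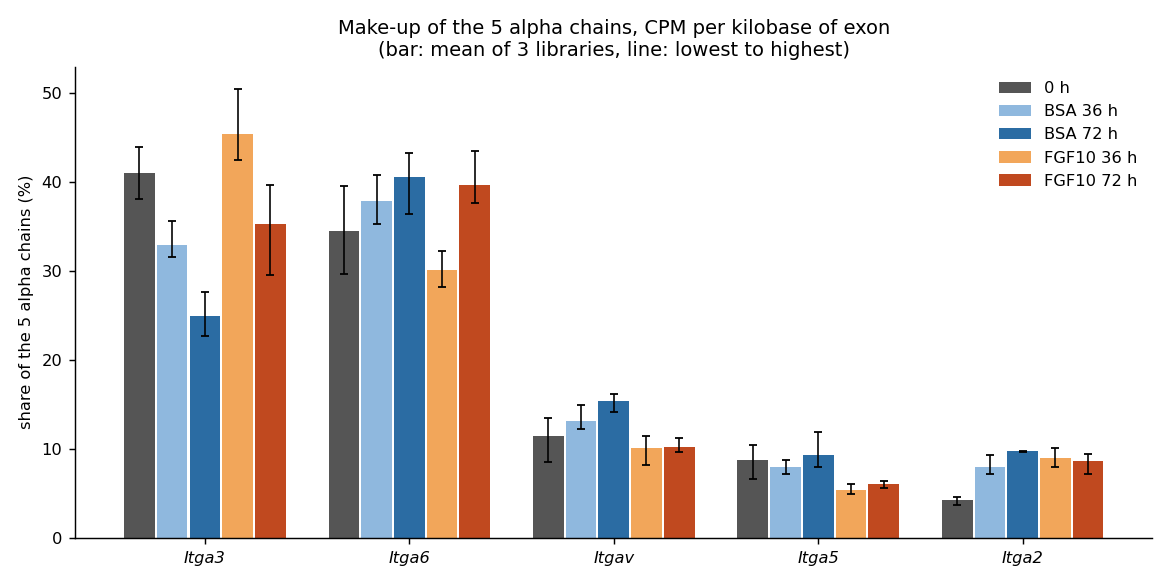
Share (y axis, percent) of each of 5 alpha chains in their summed level per kilobase of exon, by group. Bars are means of 3 libraries and lines run from the lowest to the highest library. Itga3 had its largest mean share, 45.4%, with FGF10 at 36 h and its smallest, 25%, with BSA at 72 h.

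Ratios between partner chains, computed per length in each library, gave the same values in another form. The log2 ratio of Itga6 to Itgb4 was 1.11 to 1.63 at 0 h, and its group means were 0.06 to 0.27 afterwards, so Itga6 exceeded its hemidesmosome partner at 0 h and was near it in both arms later. The ratio of Itga3 to Itga6 was -0.37 to 0.02 with BSA at 36 h and 0.43 to 0.84 with FGF10, without overlap. The ratio of Itgb6 to Itgb8, alternative partners of Itgav, was -1.42 to -0.80 with BSA at 72 h and -0.66 to 0.32 with FGF10, again without overlap. At 36 h the same ratio ran from -0.71 to 0.81 with BSA and from -0.08 to 1.64 with FGF10. The log2 ratio of Itgb1 to the 5 alpha chains together averaged 0.66 at 0 h and 0.98 to 1.27 in the other groups.

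Across the 15 libraries, Fermt1 and Itgb4 varied together (Pearson's r of log2 CPM 0.85), and did so after the group means were taken out (0.74). Itga2 was as close to Itgb4 (0.85) and Fermt1 (0.84) across groups, but not within them (0.18 and -0.11). Itgb1 and Itgb6 had 0.80 across and 0.73 within groups, and Itga3 and Itgb4 0.15 across and 0.81 within. These values describe 15 libraries that share their groups, and no p is attached. The gene most like each member over the 15 libraries was searched among the tested genes. Other members and genes with predicted, Rik, Mir, Rps, Rpl, mitochondrial or pseudogene-style names were left out. It was Tnc for Itgb4 (0.97), Slc25a24 for Itgb1 (0.95), Slc4a7 for Itga2 (0.94), Oaf for Fermt1 (0.94), Mast2 for Itgb6 (0.94), Il18r1 for Itga3 (0.92), Ncam1 for Itga6 (0.92), Wdfy3 for Itga5 (0.91), Rac3 for Itgb8 (0.90) and Hivep1 for Itgav (0.85). Each value is the highest of many and was not tested.

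The other genes of the pathway were read from lists. Over all tested genes, 0.954% rose and 1.39% fell with FGF10 against BSA at 36 h, and 3.01% and 2.98% at 72 h. At 36 h 18.7% of all genes had an unadjusted p under 0.05. Of 11 other alpha chains tested, edgeR called 0 at 36 h (2 at an unadjusted p under 0.05), and at 72 h 1 fell, the collagen receptor chain Itga1 (-1.24 ± 0.34, adjusted p = 0.0442). Of 4 other beta chains, Itgb3, which also pairs with Itgav, fell at 36 h. It had 32.1 ± 11.8 CPM with BSA and 14.4 ± 3.22 with FGF10 (SD, n = 3, adjusted p = 0.0325 by edgeR). At 72 h the leukocyte chain Itgb2 fell, from 4.27 ± 0.327 to 1.11 ± 0.279 CPM (SD, n = 3; adjusted p = 0.00313 by edgeR).

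Among the laminin chains, the ligands of Itga3 and Itga6, Lama3 rose at 36 h (0.77 ± 0.17, adjusted p = 0.0254), and at 72 h its difference was 0.43 ± 0.17 (adjusted p = 0.134). Of 17 other ligands, 3 rose at 36 h and 3 at 72 h, at each time Tnc (tenascin-C), Col18a1 (a basement membrane collagen) and Spp1 (osteopontin). Tnc, also the gene most like Itgb4, had 12 ± 4.63 CPM with BSA and 54.4 ± 13.3 with FGF10 at 36 h (SD, n = 3; difference 2.18 ± 0.32, adjusted p = 0.00506 by edgeR). At 72 h 2 of the 17 fell, the basement membrane genes Nid2 (-3.39 ± 0.86, adjusted p = 0.0322) and Col4a2 (-1.16 ± 0.30, adjusted p = 0.0353), named after their values were seen. Nid2 was near the floor, with means of 2.18 CPM with BSA and 0.189 with FGF10.

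Of 29 activators and adaptors at the beta tail, 1 rose at 36 h, filamin A (Flna, 0.69 ± 0.15, adjusted p = 0.0244). At 72 h the tensin Tns4 rose (0.76 ± 0.17, adjusted p = 0.0199) and Lims2 fell (-1.83 ± 0.42, adjusted p = 0.0225). The level of Lims2 was low, with means of 3.79 CPM with BSA and 1.07 with FGF10. Fermt2, the more widely expressed kindlin, was not called at 36 h (0.21 ± 0.12, adjusted p = 0.382) or at 72 h (-0.41 ± 0.12, adjusted p = 0.063). Of 9 partners of hemidesmosomes and tetraspanins, 0 passed at 36 h with edgeR (4 at an unadjusted p under 0.05). At 72 h the hemidesmosome collagen Col17a1 rose, from 94.3 ± 1.36 to 145 ± 5.66 CPM (SD, n = 3; adjusted p = 0.034 by edgeR). Of 9 genes for latent TGF-beta, the cargo of the Itgav receptors, 1 fell at 36 h, Tgfb3 (-0.61 ± 0.15, adjusted p = 0.0465). At 72 h 3 fell: Tgfb3 (-0.55 ± 0.15, adjusted p = 0.0431), Ltbp3 (-0.67 ± 0.15, adjusted p = 0.0225) and Nrros (-2.64 ± 0.55, adjusted p = 0.0144). Nrros was low, with means of 4.86 CPM with BSA and 0.768 with FGF10.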

How the data were processed

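Libraries came from total RNA with a stranded mRNA kit, per the labels. The authors deposited raw counts: fragments per gene over its exons, counted with featureCounts 2.0.1 without regard to strand, per the file headers, beside each gene's exon length. Coordinates are of GRCm39, and HISAT2 2.2.1 and cutadapt 1.9.1 are listed, per the submitters' processing notes. Groups follow the treatment labels, with 3 libraries in each of 5 groups. The titles and columns of the FGF10 libraries of 72 h spell the factor FGF0, while their treatment label says FGF10, which was followed. All 15 libraries entered 1 edgeR 4.0.16 fit (R 4.3.3): genes kept by filterByExpr (minimum count 10, minimum total 15), TMM scaling, robust quasi-likelihood F test with 10 residual degrees of freedom, 9 contrasts and Benjamini-Hochberg adjustment over 18140 genes. Intervals use the fit's degrees of freedom. The code was tested on simulated counts. Alternatives used limma 3.58.1 (voom), DESeq2 1.42.0, other filters and scaling, a replicate block, the compared groups alone, summed libraries and leaving out each library. At totals of 11965322 to 24261233 counts, standard errors for FGF10 against BSA ran from 0.13 (Itga6) to 0.39 (Itgb8). All members are named, with up to 3 genes of smallest p per pathway list and time and the most correlated gene of each member. Part of the laminin list is not reported here. The members and lists were chosen with earlier results of these data known.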

Additional observations from a re-analysis of the deposited data

How the results depend on the processing

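Over 23 alternatives for each of the 10 genes and 9 comparisons (2070 values), 1933 stayed on the same side of the threshold, 74 lost a call, 63 gained one and 0 changed direction past the threshold. Where the number of the 10 genes called moved by more than 1.5 times, the values were as follows. With the compared groups alone it was 1 in place of 4 for FGF10 against BSA at 36 h, 5 in place of 3 at 72 h, 6 in place of 3 for BSA at 72 h against 0 h, 1 in place of 0 for 72 h against 36 h with BSA and 0 in place of 2 with FGF10. With limma voom it was 5 for FGF10 against BSA at 72 h, 7 in place of 4 for FGF10 at 72 h against 0 h, and 2 and 5 for 72 h against 36 h with BSA and FGF10. In these comparisons limma voom called 26.6%, 37.2%, 14.3% and 4.82% of all genes, where edgeR called 5.99%, 29.9%, 0.469% and 1.91%. For 72 h against 36 h with BSA it was 1 with no filter and 1 with DESeq2. With replicates 2_1 and 2_2 summed it was 1 for FGF10 against BSA at 72 h and 1 for 72 h against 36 h with FGF10. The cause was not tested.

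Leaving out 1 library gave 3 to 5 calls for FGF10 against BSA at 36 h and 0 to 4 at 72 h, the 0 without replicate 4 of FGF10 at 72 h and 1 without replicate 3 or any BSA library of 72 h. It gave 3 to 6 for BSA at 72 h against 0 h, 4 to 7 for FGF10 at 72 h against 0 h (both highest without replicate 4 of FGF10 at 36 h), 0 to 1 for 72 h against 36 h with BSA and 0 to 2 with FGF10. With the replicate number as a block, the calls were 1 for FGF10 against BSA at 72 h and 7 for FGF10 at 72 h against 0 h. The block left Itgb4 at an adjusted p of 0.0659 at 36 h and 0.0789 at 72 h, Itgb6 at 0.0521 at 72 h, and Itgb1 at 0.0504 for FGF10 at 36 h against 0 h. The labels do not say that a number marks a shared source. Deviations from the group means had correlations from -0.16 to 0.40 in 21 same-numbered pairs (median 0.06, 8 over 0.1) and from -0.26 to 0.21 in 69 others (8 over 0.1), and 9 of 15 libraries correlated best with their own number. Between BSA and FGF10 at 36 h the correlation was 0.404 for the replicates numbered 1 and 0.277 for those numbered 3. At 72 h it was 0.076 for those numbered 3, and 0.008 and -0.006 for 2_1 and 2_2 with replicate 2. These values hint at a shared source for some numbers. Not every pair met the criterion of 0.1, so the block was kept as an alternative, and the main p-values ignore any such pairing.

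Over all genes, 425 were called for FGF10 against BSA at 36 h (127 to 852 with 1 library left out, 78 to 1415 over the other alternatives) and 1087 at 72 h (148 to 1950, and 277 to 5025). For 72 h against 36 h the counts were 85 with BSA (0 to 569, and 0 to 2586) and 346 with FGF10 (99 to 434, and 161 to 874). For FGF10 at 36 h against 0 h they were 7225 (5875 to 7464, and 3847 to 7609). At 72 h against 0 h they were 4568 with BSA (3256 to 5627, and 3362 to 5975) and 5417 with FGF10 (3952 to 6588, and 4984 to 6749).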
